A study of Mus musculus with 22 samples.

Results

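Lipocalins are small secreted proteins that fold into a barrel and carry a lipophilic ligand inside it. The major urinary proteins, encoded by the *Mup* cluster, are lipocalins made mainly by mouse liver, which bind volatile pheromones and carry them into urine. *Ptgds* encodes lipocalin-type prostaglandin D synthase, which makes prostaglandin D2 and is secreted into cerebrospinal fluid by choroid plexus (ChP) and meninges. *Lcn2* encodes lipocalin 2, an acute-phase protein that binds bacterial siderophores and is abundant in neutrophils. The genes described are *Mup3*, *Mup4*, *Mup5*, *Mup6*, *Mup20*, *Mup21*, *Ptgds* and *Lcn2*, 8 of the 33984 genes in the files. They were named by symbol, and they had been chosen by measured values of the Cre-Tat comparisons in LV (lateral ventricle) and 4V (the fourth ventricle) ChP and of the *Otx2*+/GFP comparison, so that their values in those 3 comparisons are a description. Of the 8 genes, 6 had at least 1 count in some pool and 3 had over 3 counts, namely *Mup5*, *Ptgds* and *Lcn2*.

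RNA of ChP was sequenced in 14 pools, 2 pools (A and B) for each of 7 groups. The conditional model, labelled strain S129, used *Otx2* lox/lox animals aged 3 months, which received Cre-Tat protein or vehicle in the lateral ventricles and were dissected 15 days later. A pool held 5 mice where labelled Cre-Tat and 4 where labelled vehicle, for each of LV and 4V ChP. In the constitutive model, labelled strain B6D2, 4V ChP came from wildtype and *Otx2*+/GFP mice (labelled *Otx2* (+/-)), both aged 3 months. *Otx2*+/GFP mice lack 1 functional allele in every cell for life. For the pools of these groups the study's methods give 4 *Otx2*+/GFP mice and 5 wildtype littermates. The methods also give an equal mix of males and females, but not the sexes in each pool. Mice labelled *Otx2* (+/AA) gave 4V ChP too, and neither their number per pool nor their age is given in the sources used here. The mice of every conditional group, vehicle included, carry the floxed alleles, and the models also differ in strain and sequencing run, which cannot be told apart from the model. The 8 marker genes of ChP epithelium were all detected, with group means from 183 CPM (counts scaled to 1e6 per library) for *Sostdc1* to 42921 CPM for *Enpp2*.

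Total counts were 22750019 to 50088408 per pool. CPM values use library sizes scaled by the TMM method over the 14 pools, and errors are SD over 2 pools. *Otx2*, the targeted gene, was counted over its whole transcript at 1025 to 1236 CPM in LV pools with the label Cre-Tat and 386 to 470 CPM in those with the label vehicle. In 4V ChP it was at 1203 to 1222 CPM with Cre-Tat and 386 to 393 CPM with vehicle, and at 886 to 1027 CPM in *Otx2*+/GFP against 303 to 361 CPM in wildtype. Pools with a knockdown label thus had the higher count, and the cause was not tested. Counts per exon were not analysed here, so the count does not show whether the altered part of *Otx2* fell, and it does not check the labels. The groups are named by their labels. In 14 of the 16 conditional files, the name carries a library number of another pool than the sample that GEO lists the file under, and the number was followed.

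The *Mup* genes are close copies of each other on chromosome 4, so that the letters that set *Mup5* apart decide what its counts mean. *Mup5* (ENSMUSG00000058523, chr4:61831319-61835233, minus strand, GRCm38) has 7 exons, and its transcript of 925 bases was 92.8% identical to that of *Mup4* and 86.35% to 90.3% identical to those of the other 4 *Mup* genes described. The read length was 50 bases. Shown first is the 50-base coding window of *Mup5*, in 1 exon at chr4:61835046-61835095, that is farthest from all other *Mup* transcripts, with the aligned window of each other gene below it. Capitals mark the bases that differ from *Mup5*.
Mup5: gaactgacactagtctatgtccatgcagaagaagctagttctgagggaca
Mup3: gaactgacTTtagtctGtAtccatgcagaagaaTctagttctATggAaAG
Mup4: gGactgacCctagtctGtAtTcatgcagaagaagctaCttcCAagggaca
Mup6: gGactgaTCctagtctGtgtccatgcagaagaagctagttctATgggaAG
Mup20: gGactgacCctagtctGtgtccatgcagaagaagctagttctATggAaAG
Mup21: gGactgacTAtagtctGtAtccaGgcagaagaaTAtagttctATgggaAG

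In that window *Mup5* differed from these genes by 8 to 12 bases, and from the closest *Mup* gene of all by 7 bases. The other extreme is shown by a coding window that starts at base 218 of the transcript, where the first starts at base 139, in 1 exon at chr4:61834629-61834678, where *Mup4* has the same 50 bases. A read of this window cannot be assigned to either gene from its sequence.
Mup5: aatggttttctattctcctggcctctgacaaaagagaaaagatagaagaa
Mup4: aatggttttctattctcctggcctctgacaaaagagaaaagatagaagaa
Mup6: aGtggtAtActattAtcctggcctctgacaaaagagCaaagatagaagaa
Mup20: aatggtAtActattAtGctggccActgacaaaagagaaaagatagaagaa
Mup3: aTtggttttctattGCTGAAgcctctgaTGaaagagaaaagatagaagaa

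Over the whole *Mup5* transcript, 384 of 876 windows (43.8%) differed by more than 2 bases from every other *Mup* transcript, and 150 (17.1%) occurred letter for letter in another gene. The corresponding share of distinct windows was 36.4% for *Mup3*, 32.4% for *Mup4*, 41.2% for *Mup6*, 26.8% for *Mup20* and 33.8% for *Mup21*. Of the other 15 *Mup* genes, 14 had no such window, and a median of 94.4% of their windows occurred exactly in another gene. What was done with reads that match several genes is not given in the sources used here, and for those genes a count of 0 says little about their RNA.

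**Figure D1:**
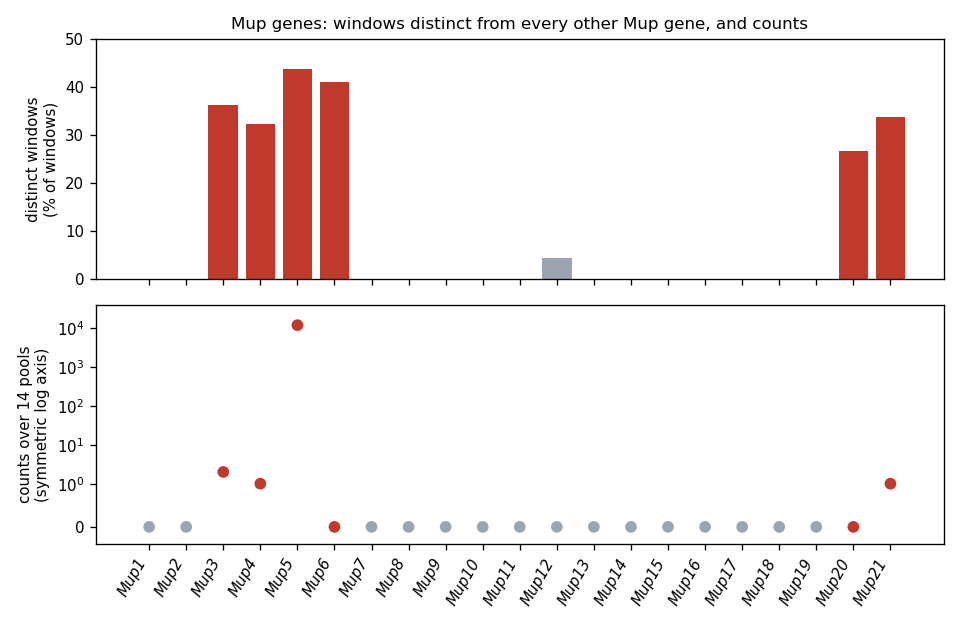
The upper panel plots, for each of 21 *Mup* genes, the percent of 50-base windows that differ by more than 2 bases from every other *Mup* transcript, and the lower panel its counts over 14 pools on a symmetric log axis. The 6 genes described are in red; *Mup5* stands at 11920 counts, while each of the other genes has at most 2.

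Counts of the cluster fell almost wholly on *Mup5*. Over all 14 pools it had 11920 counts, against 2 for *Mup3* (1 in *Otx2*+/GFP pool A and 1 in *Otx2*+/AA pool B), 1 for *Mup4* (4V Cre-Tat pool A) and 1 for *Mup21* (wildtype pool A). *Mup6* and *Mup20* had 0 counts in every pool, which allows up to 3 counts in each of them. All 5 genes lay at or under that limit in every pool, and no fold was computed for them. The other 15 *Mup* genes had 0 counts, and the 21 *Mup* pseudogenes had 23 counts, of which 19 were on *Mup-ps22*. With the counts of all *Mup* genes summed, the log2 difference with Cre-Tat was 5.10 in LV and 5.33 in 4V, against 5.10 and 5.32 for *Mup5* alone. The sum gave 4.02 for *Otx2*+/GFP against wildtype and 4.52 against *Otx2*+/AA, where *Mup5* alone gave 4.53 and 4.82, and an interaction of knockdown label with model of 1.30 in place of 0.79.

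*Mup5* was higher in every pool labelled Cre-Tat than in any other pool of the series. In LV ChP it had 23 counts in vehicle pool A, 203 in vehicle pool B, 3927 in Cre-Tat pool A and 4863 in Cre-Tat pool B. These are 1.10 and 10.1 CPM with vehicle and 158 and 223 CPM with Cre-Tat, so that the groups did not overlap while the vehicle pools differed widely. The mean went from 5.60 ± 6.36 to 190 ± 46.2 CPM, a ratio of 34.0, with a log2 difference of 5.10 ± 0.56 (SE). Without vehicle pool B this difference was 7.43, and without vehicle pool A it was 4.23. The technical runs of vehicle pool B gave 109 and 94 counts and those of pool A gave 14 and 9, so that the gap lay between the pools and not between runs.

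In 4V ChP, *Mup5* had 27 and 15 counts with vehicle and 1549 and 1070 counts with Cre-Tat. The levels were 2.00 and 1.38 CPM against 84.1 and 53.9 CPM, again with no overlap. The ratio of the means (1.69 ± 0.435 and 69.0 ± 21.3 CPM) was 40.8, and the log2 difference was 5.32 ± 0.26. With the files used as attached, the log2 difference of *Mup5* was 0.81 in LV and 1.78 in 4V. Its size in the conditional model thus rests on how the files were joined, and as attached the runs of a pool differed beyond sampling noise. Ranked by the difference from the highest, with files joined by library number, *Mup5* was at place 5 of 15002 genes tested in LV ChP and at place 16 of 14550 in 4V ChP.

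In the constitutive model all levels of *Mup5* were below those of the Cre-Tat pools. It had 4 and 5 counts in the wildtype pools, 101 and 125 in the *Otx2*+/GFP pools, and 0 and 8 in the *Otx2*+/AA pools. The mean was 0.245 ± 0.0512 CPM in wildtype and 5.76 ± 0.936 CPM in *Otx2*+/GFP, a ratio of 23.5 that rests on 9 wildtype counts, and the log2 difference was 4.53 ± 0.37. The *Otx2*+/AA pools, at 0.209 ± 0.295 CPM, overlapped the wildtype pools, and at these counts no difference between them was detectable (*Mup5* did not pass the filter on low counts). Against *Otx2*+/AA, *Mup5* was higher in *Otx2*+/GFP by 4.82 ± 0.57 on the log2 scale, a comparison that uses the same *Otx2*+/GFP pools as the one above. That value was 3.77 without *Otx2*+/AA pool A, which had no *Mup5* counts, and 9.86 without pool B, so its size depends on a few counts.

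**Figure D2:**
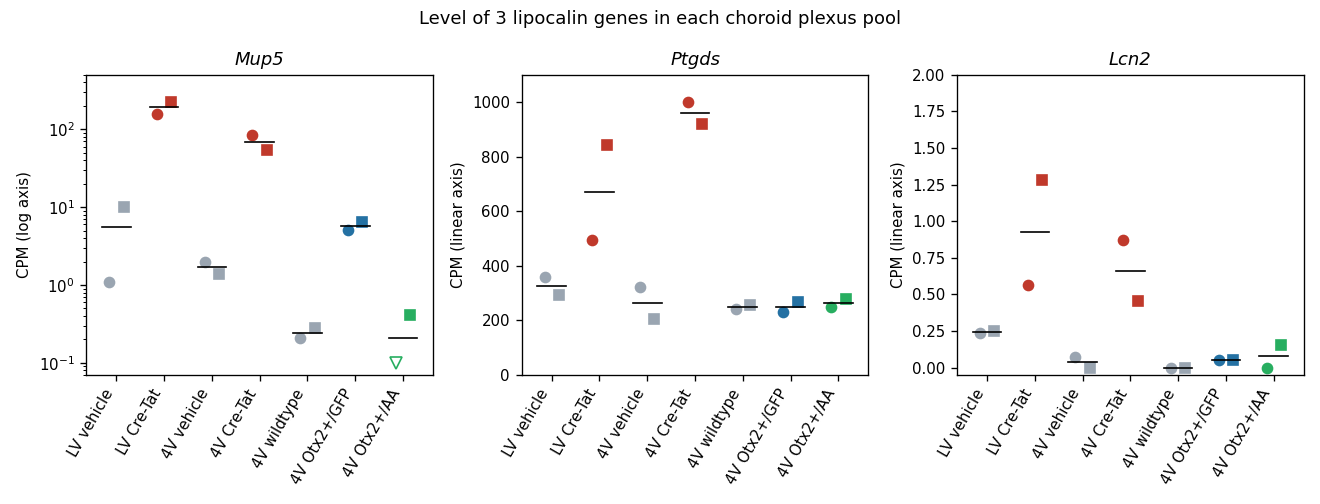
Level of *Mup5* (log axis), *Ptgds* and *Lcn2* (linear axes) in CPM in each of 14 pools, with circles for pool A, squares for pool B and lines for the mean of 2 pools; the open triangle is a pool with 0 counts. The Cre-Tat pools (red) hold the highest values of all 3 genes, and *Mup5* is also higher in *Otx2*+/GFP (5.76 CPM) than in wildtype (0.245 CPM).

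In the order of the group means, *Mup5* was highest in LV Cre-Tat (190 CPM), followed by 4V Cre-Tat (69.0 CPM), with no overlap between their pools. *Otx2*+/GFP (5.76 CPM), LV vehicle (5.60 CPM) and 4V vehicle (1.69 CPM) followed. The pools of LV vehicle overlapped those of both neighbours, while those of 4V vehicle lay above the next group. Wildtype (0.245 CPM) and *Otx2*+/AA (0.209 CPM) came last and overlapped each other. Levels between genes can be set side by side only per length, as TPM (transcripts scaled to 1e6 by length), and on that scale *Mup5* went from place 6544 among genes with counts in LV vehicle (9.19 TPM) to place 129 in LV Cre-Tat (356 TPM). The comparison of LV with 4V vehicle pools, which the choice of genes did not use, gave a log2 difference of 1.68 ± 0.70 for *Mup5* (adjusted p = 0.17, edgeR's quasi-likelihood test), and without LV vehicle pool B it was -0.62 (adjusted p = 0.72).

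*Ptgds* (ENSMUSG00000015090, chr2:25466709-25470046, minus strand) was abundant in every group and higher still with Cre-Tat. In LV ChP it had 7501 and 5885 counts with vehicle and 12293 and 18403 counts with Cre-Tat, which are 358 and 293 CPM against 494 and 844 CPM. The groups did not overlap, and the Cre-Tat pools lay farther apart than the vehicle pools. The mean went from 326 ± 46.4 to 669 ± 248 CPM, a ratio of 2.06 and a log2 difference of 1.04 ± 0.22. Without LV Cre-Tat pool B the difference was 0.61 and without Cre-Tat pool A it was 1.39. Without LV vehicle pool B it was 0.90, which no longer passed the threshold of 0.05.

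In 4V ChP, *Ptgds* had 4358 and 2226 counts with vehicle and 18413 and 18247 counts with Cre-Tat. The levels were 323 and 205 CPM against 1000 and 919 CPM, and each Cre-Tat pool was at least 2.85 times each vehicle pool. The ratio of the means was 3.63 and the log2 difference was 1.86 ± 0.19. On the TPM scale *Ptgds* stood at place 75 with vehicle (536 TPM) and at place 19 with Cre-Tat (2236 TPM). With the files used as attached rather than by library number, the log2 difference of *Ptgds* was -0.72 in LV ChP and -0.20 in 4V ChP. Its direction in the conditional model thus rests on how the files were joined. By library number, the 2 runs of a pool agreed within sampling noise (chi-square 1.002 to 1.032 times its degrees of freedom). As attached they did not (13.2 to 20.5 times).

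In the constitutive model the *Ptgds* pools lay together. Wildtype pools had 240 and 256.96 CPM, *Otx2*+/GFP pools 231 and 268 CPM, and *Otx2*+/AA pools 250 and 280 CPM. All 3 groups overlapped, and the log2 difference of *Otx2*+/GFP from wildtype was 0.01 ± 0.12. *Otx2*+/AA differed from wildtype by 0.08 ± 0.13 (adjusted p = 0.93, edgeR's quasi-likelihood test), and *Otx2*+/GFP differed from *Otx2*+/AA by -0.08 ± 0.15. Between vehicle pools, *Ptgds* was at 326 ± 46.4 CPM in LV and 264 ± 83.0 CPM in 4V ChP, a log2 difference of 0.30 ± 0.18 that did not pass the threshold (adjusted p = 0.36, edgeR's quasi-likelihood test). LV and 4V ChP were taken from the same kind of injected mice, and whether pools of 1 letter share animals is not given in the sources used here. With the pool letter as a block *Ptgds* differed by 0.33 ± 0.11 (adjusted p = 0.042, edgeR), and LV was higher in both letters. Without 4V vehicle pool A the difference was 0.67 (adjusted p = 0.038, edgeR) and without pool B it was 0.01.

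The order of the *Ptgds* means was 4V Cre-Tat (959 CPM), LV Cre-Tat (669 CPM) and LV vehicle (326 CPM), with no overlap between these neighbours. *Otx2*+/AA (265 CPM), 4V vehicle (264 CPM), *Otx2*+/GFP (250 CPM) and wildtype (248 CPM) followed, each of them overlapping the next. *Mup5* was thus highest in LV Cre-Tat and *Ptgds* in 4V Cre-Tat. The difference between the Cre-Tat responses of LV and 4V ChP, fitted as an interaction over 8 pools, was -0.82 ± 0.33 for *Ptgds* and -0.22 ± 0.85 for *Mup5*, and neither passed the threshold after adjustment (adjusted p = 0.9997 for both, edgeR's quasi-likelihood test).

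*Lcn2* (ENSMUSG00000026822, chr2:32384633-32388252, minus strand) was near the limit of detection. In LV ChP it had 5 and 5 counts with vehicle and 14 and 28 counts with Cre-Tat, which are 0.239 and 0.249 CPM against 0.562 and 1.28 CPM. The groups did not overlap, and the log2 difference was 1.89 ± 0.72, which did not pass the threshold. *Lcn2* passed the filter on low counts there only through its Cre-Tat pools, and this comparison had selected the genes, so the values are a description. The log2 difference was 1.20 without Cre-Tat pool B and 2.39 without Cre-Tat pool A. In 4V ChP it had 1 and 0 counts with vehicle and 16 and 9 counts with Cre-Tat, and it did not pass the filter on low counts, so no fold was given. With no filter *Lcn2* passed the threshold there, while by DESeq2 or with all groups of a run fitted together it was not called. It also passed with transcripts summed and with the files as attached, but nothing is read from these passes. The *Lcn2* transcripts had 23 to 83 counts each over all pools, and their sum may hold the same reads repeatedly. As attached, edgeR's coefficient of variation between pools was 0.0099 in 4V Cre-Tat against vehicle, where by library number it was 0.12. In the constitutive model *Lcn2* had 0 counts in both wildtype pools, 1 in each *Otx2*+/GFP pool, and 0 and 3 in the *Otx2*+/AA pools. All of these are at or under 3 counts.

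**Figure D3:**
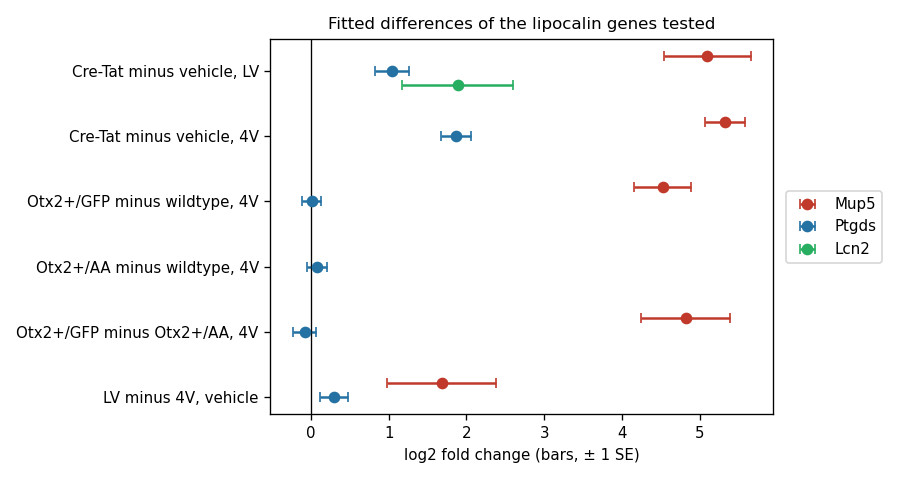
Log2 fold change (x axis) of *Mup5*, *Ptgds* and *Lcn2* in 6 comparisons, for each in which the gene passed the filter on low counts. Bars are ± 1 SE, derived from edgeR's F statistic. *Mup5* lies between 4.53 and 5.32 in both Cre-Tat comparisons and in *Otx2*+/GFP against wildtype, while *Ptgds* lies at 1.04 and 1.86 with Cre-Tat and near 0 in the constitutive model.

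Counted over the 8 genes, 3 were tested and 2 (*Mup5* and *Ptgds*) called higher with Cre-Tat in LV ChP, where 3.24% of all genes tested were called. In 4V ChP 2 were tested and both called higher, beside 10.7% of all genes, and in *Otx2*+/GFP against wildtype 2 were tested and *Mup5* was called higher, beside 3.53%. In *Otx2*+/GFP against *Otx2*+/AA 2 were tested and *Mup5* was called higher, beside 2.7%, a call that DESeq2 did not give (adjusted p = 0.26). The first 3 comparisons had selected the genes, the last one uses the same *Otx2*+/GFP pools, through which alone *Mup5* passed the filter, and nothing is read from the counts. *Otx2*+/AA against wildtype tested 1 of the genes and called none of them, beside 0.345% of genes. The LV and 4V vehicle pools gave 2 tested and 0 called, beside 7.44%. The interaction of Cre-Tat with ventricle gave 3 tested and 0 called, beside 0.00642%, and that of knockdown label with model 2 tested and 1 called, *Ptgds*, beside 1.64%.

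Marker lists of other cell types were measured in the same pools. For these and the gene lists below, calls stand beside 3.24% of all genes tested in LV Cre-Tat against vehicle. The shares were 10.7% in 4V Cre-Tat and 3.53% in *Otx2*+/GFP against wildtype. Of 10 hepatocyte markers, 6 had at most 3 counts in every pool, and *Alb*, which encodes albumin, had at most 10. The summed level of the hepatocyte list was 10.3 to 13.6 CPM in LV vehicle and 6.39 to 8.21 CPM in LV Cre-Tat. In 4V ChP it was 5.35 to 9.41 CPM with vehicle and 3.47 to 4.03 CPM with Cre-Tat. Most of it was *Tat*, tyrosine aminotransferase, which fell by 1.12 ± 0.28 on the log2 scale with Cre-Tat in 4V ChP (adjusted p = 0.015, edgeR's quasi-likelihood test). *Tat* was at 11.6 and 6.84 CPM in LV vehicle and Cre-Tat, and 7.22 and 3.34 CPM in 4V ChP, so the sum follows this gene. Each other marker of the list had a mean of at most 0.338 CPM in these groups (*Alb* in LV Cre-Tat), too low to read a direction. A liver source of the *Mup5* counts was not tested.

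The ChP epithelium list moved the other way from *Mup5* and *Ptgds* with Cre-Tat. Its summed level was 43575 to 45102 CPM in LV vehicle and 27874 to 29474 CPM in LV Cre-Tat. In 4V ChP it was 45102 to 49175 CPM against 23577 to 25075 CPM. Most of it was *Enpp2*, at 36018 and 23299 CPM in LV vehicle and Cre-Tat, and 40052 and 20400 CPM in 4V ChP. Of the list's 8 genes, 4 fell in LV ChP and 8 fell in 4V ChP. An example is *Sostdc1*, which encodes a secreted inhibitor of BMP and Wnt signals (-0.95 ± 0.16 and -0.96 ± 0.15). In *Otx2*+/GFP, 2 fell, and the summed level was 42005 to 47595 CPM against 48942 to 51018 CPM in wildtype. In pooled tissue, fewer cells of a type and less RNA per cell cannot be told apart, and the part of this shift in the levels of *Mup5*, *Ptgds* and *Lcn2* was not tested.

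Meninges and oligodendrocytes also express *Ptgds*. The summed level of 10 leptomeningeal and stromal markers was 308 to 328 CPM in LV Cre-Tat against 337 to 339 CPM in LV vehicle, and 235 to 287 CPM against 253 to 256.9 CPM in 4V ChP. Most of it was *Dcn*, at 254 and 232 CPM in LV vehicle and Cre-Tat, and 168 and 175 CPM in 4V ChP. The LV means of *Slc47a1*, *Slc6a13*, *Dpp4*, *Ranbp3l*, *Foxc1* and *Col1a1* were higher with Cre-Tat, while those of *Dcn*, *Lum*, *Aldh1a2* and *Tbx18* were lower. The sum follows *Dcn* and does not show the direction of the less abundant markers. The summed level of 6 oligodendrocyte markers was 59.3 to 72.6 CPM against 40.0 to 63.3 CPM in LV ChP, and 39.9 to 45.3 CPM against 39.0 to 43.2 CPM in 4V ChP. None of the oligodendrocyte markers and 1 of the stromal markers, *Dpp4*, passed the test in either Cre-Tat comparison. *Dpp4* rose in LV ChP by 2.31 ± 0.49 on the log2 scale. In *Otx2*+/GFP the stromal list was at 695 to 777 CPM against 469 to 546 CPM in wildtype, while *Ptgds* lay at 231 to 268 CPM against 240 to 256.96 CPM.

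*Lcn2* is a granule gene of neutrophils, and their markers stood apart in 1 pool. The summed level of 8 neutrophil markers was 23.3 CPM in 4V Cre-Tat pool A and 0.0995 to 4.11 CPM in the other 13 pools. *Lcn2* had 16 counts in that pool, 9 in 4V Cre-Tat pool B and 14 and 28 in the LV Cre-Tat pools, where the neutrophil list was at 0.442 to 0.596 CPM. The list of 6 macrophage markers was at 171 to 212 CPM in LV Cre-Tat against 82.5 to 110 CPM in LV vehicle. In 4V ChP it was at 113 to 157 CPM against 63.0 to 65.0 CPM. The largest part was *Cd74*, at 46.8 and 116.5 CPM in LV vehicle and Cre-Tat, and 31.4 and 73.9 CPM in 4V ChP. Of the list's genes, 2 rose in LV ChP (*Cd74* and *Ptprc*) and 5 rose in 4V ChP. *Ptprc*, the leukocyte antigen CD45, rose by 1.36 ± 0.22 and 1.60 ± 0.21 on the log2 scale. The part of these cells in the *Lcn2* counts was not tested.

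Endothelial markers (4 genes) gave no call in either Cre-Tat comparison or in *Otx2*+/GFP. Of 4 astrocyte markers, 2 rose and 1 fell in each Cre-Tat comparison, with *Aqp4*, a water channel, higher by 0.78 ± 0.19 in LV and 0.84 ± 0.20 in 4V ChP. The gene that fell was *Aldh1l1*, the most abundant of the 4. It went from 47.8 to 29.7 CPM in LV ChP (-0.69 ± 0.16) and from 89.6 to 58.3 CPM in 4V ChP. Of 4 neuronal markers, *Snap25* rose in LV ChP and *Syt1*, both of them proteins of synaptic release, fell in 4V ChP.

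**Figure D4:**
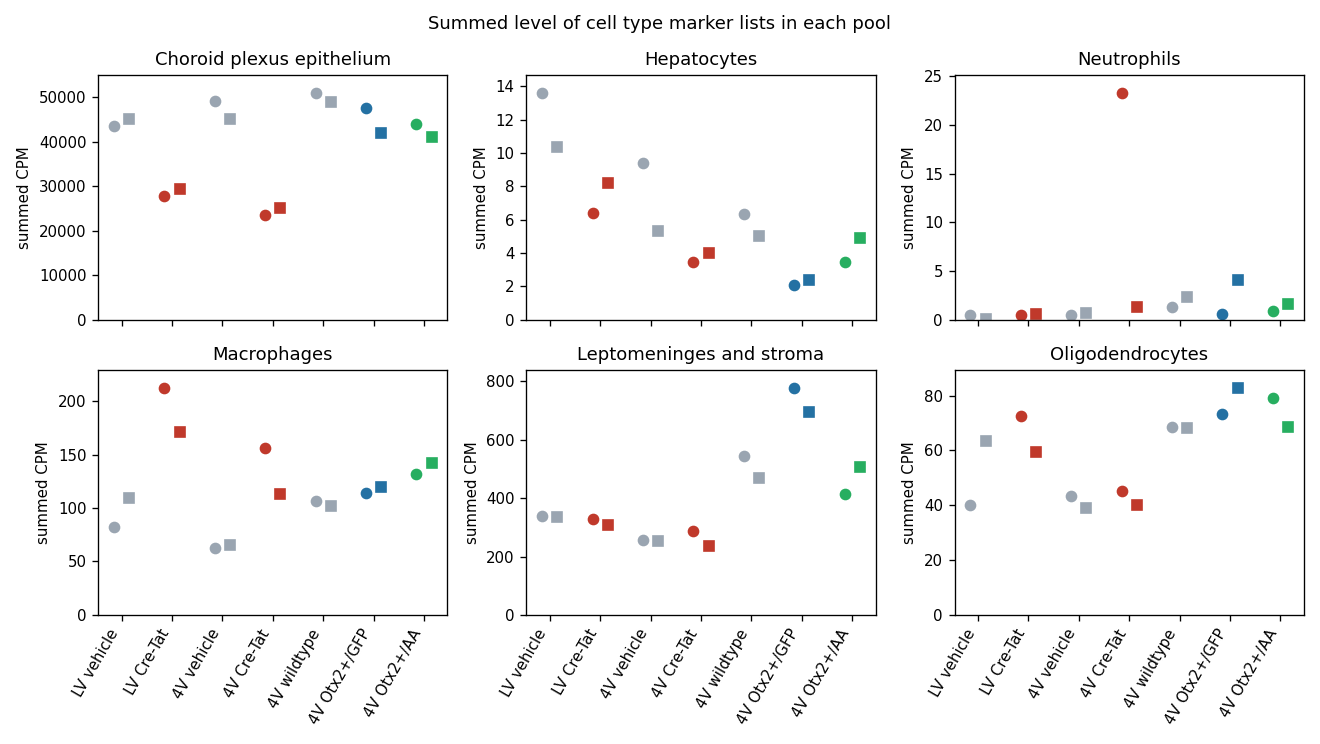
Summed CPM (linear axes from 0) of 6 marker lists in each of 14 pools, with circles for pool A and squares for pool B. The epithelial list is lowest in the Cre-Tat pools (red), and the neutrophil list stands out in 4V Cre-Tat pool A at 23.3 CPM. The hepatocyte list is mostly *Tat*.

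Of 28 other lipocalins, 21 are in the files and 14 of these had at most 3 counts in every pool. *Apod*, which encodes the lipid carrier apolipoprotein D, was the most abundant, at 147 CPM in LV vehicle and 236 CPM in LV Cre-Tat, and at 98.4 and 202 CPM in 4V ChP. It rose by 0.69 ± 0.17 in LV ChP (adjusted p = 0.039) and by 1.04 ± 0.16 in 4V ChP (adjusted p = 0.00023, both from edgeR's quasi-likelihood test), and its *Otx2*+/GFP difference was 0.14 ± 0.16. *Orm2*, an acute-phase plasma lipocalin, rose in LV ChP by 3.23 ± 0.65 from 0.246 to 2.34 CPM (adjusted p = 0.015, edgeR). Its vehicle level was near the limit of detection, so the size of this difference is uncertain. In all, 2 of 4 other lipocalins tested were called in LV ChP, 1 of 2 in 4V ChP and 0 of 3 in *Otx2*+/GFP. Of all genes tested, 3.24%, 10.7% and 3.53% were called, and with so few lipocalins tested nothing is read from the counts. The medians of the other lipocalins were 0.12, 0.64 and 0.14, where the median over all genes tested was within 0.0071 of 0 in every comparison.

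The prostaglandin pathway around *Ptgds* gave no call with Cre-Tat. Of its 16 genes, 14 were tested in LV and 15 in 4V, with median log2 differences of 0.08 and 0.01. They include *Ptgs1* and *Ptgs2*, the cyclooxygenases that supply the substrate of *Ptgds*, at 6.04 and 4.78 CPM in LV vehicle and 5.71 and 5.85 CPM in LV Cre-Tat. *Ptgdr*, a receptor of prostaglandin D2, was at 1.93 and 2.29 CPM. In *Otx2*+/GFP, *Ptgis*, prostacyclin synthase, fell by 1.30 ± 0.21 (adjusted p = 0.012) and *Hpgd*, which degrades prostaglandins, rose by 0.64 ± 0.13 (adjusted p = 0.036, edgeR).

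Among 22 *Lcn2* receptors and acute-phase signals, 1 of 15 tested rose in LV ChP, 1 of 14 in 4V ChP and 0 of 14 in *Otx2*+/GFP. The shares of all genes called were 3.24%, 10.7% and 3.53%, so the list as a whole does not stand out. Its medians were 0.13, 0.15 and -0.04. The gene called in LV ChP was *Saa3*, an acute-phase serum amyloid, which went from 0.0995 to 2.19 CPM, a log2 difference of 4.41 ± 0.76 (adjusted p = 0.0052, edgeR). Its vehicle level was near the limit of detection. In 4V ChP it was *Tlr4*, the receptor of bacterial lipopolysaccharide, at 0.67 ± 0.19 (adjusted p = 0.026, edgeR). *Slc22a17*, which encodes a receptor of lipocalin 2, was at 759 CPM in LV vehicle and 621 CPM in LV Cre-Tat, a difference of -0.29 ± 0.18 that did not pass the threshold.

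Growth hormone acting through STAT5 is the main known control of hepatic *Mup* genes. Of 10 genes of this pathway 9 were tested, and none rose with Cre-Tat. *Ghr*, the growth hormone receptor, fell by 0.64 ± 0.16 in LV ChP (adjusted p = 0.045) and by 0.62 ± 0.13 in 4V ChP (adjusted p = 0.0053). *Prlr*, the prolactin receptor, which also marks ChP epithelium, fell by 0.93 ± 0.24 in 4V ChP (adjusted p = 0.018) and by 1.502 ± 0.27 in *Otx2*+/GFP (adjusted p = 0.02, edgeR). *Igf1*, a target of growth hormone, rose in *Otx2*+/GFP by 1.14 ± 0.20 (adjusted p = 0.017, edgeR), and *Cish* and *Socs2*, feedback inhibitors induced by STAT5, were not called in these comparisons. The median differences of this list were 0.06, 0.24 and 0.17.

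The 250 bases before the RefSeq start were searched in GRCm38.p6 for TAATCC, the core that OTX2 binds, and for TTCNNNGAA, the STAT site, on both strands. RefSeq windows matched 6 of the 8 genes, namely *Mup3*, *Mup4*, *Mup6*, *Mup21*, *Ptgds* and *Lcn2*. *Mup5* and *Mup20* had no window and were not searched, so the search says nothing about *Mup5*. TAATCC was in 1 of the 6 windows, that of *Mup3*, and in 6.25% of all 32841 windows. TTCNNNGAA was in 0 of the 6 and in 7.02% of all windows.

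Over the 14 pools, the genes whose log2(CPM + 1) followed *Mup5* most closely among 13438 genes with a mean of at least 1 CPM were *Mpp1*, *Det1* and *Ifitm10*, with Pearson's r of 0.96, 0.96 and 0.95. *Mpp1*, a membrane scaffold protein, was at 83.0 and 354 CPM in LV vehicle and Cre-Tat, 64.6 and 310 CPM in 4V ChP, 56.8 CPM in wildtype and 71.1 CPM in *Otx2*+/GFP. For *Ptgds* they were *1700007K13Rik*, *Maats1* and *Plin5*, with r of 0.97, 0.96 and 0.95, and *Plin5*, a lipid droplet protein, was at 2.85 and 6.64 CPM in LV and 1.89 and 7.08 CPM in 4V ChP. The pools fall into few groups and share libraries and scaling, so these values describe a likeness only.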

How the data were processed

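RNA of 14 ChP pools was analysed from 22 files. The authors deposited counts, whole numbers of reads per Ensembl transcript without normalization, and the submitters' processing notes name bcl2fastq 1.8.4, Bowtie 0.12.9, SAMtools, HTSeq 0.5.3, DESeq 1.8.3 and mm10 without their roles. The counting mode and strand are not given in the sources used here. The labels describe ribosomal RNA depletion, the study's methods PolyA+ selection. Files of the conditional model were joined by library number, since the technical runs of a pool then agreed within sampling noise (chi-square 1.002 to 1.032 times its degrees of freedom, against 13.2 to 20.5 as attached), and 2 runs were summed. Of 95533 transcripts, 82807 matched GENCODE vM21 (89.5% of counts), and the transcript with the highest sum of counts stood for its gene.

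Each comparison was fitted on its own pools with edgeR 4.0.16 in R 4.3.3 (filterByExpr, TMM, quasi-likelihood test). Adjustment was by Benjamini-Hochberg over all genes, with a threshold of 0.05. The SE of a log2 difference was the absolute difference divided by the square root of edgeR's F statistic. The study's methods give the number of mice and an equal mix of males and females, but not which mice or sexes each pool holds. P-values rest on the spread between 2 pools, which edgeR draws towards that of other genes, and total counts set counting error alone. With 2 pools on each side, the smallest exact permutation p is 0.33. Tables came from Python 3.11.15, Biopython 1.88, NumPy 2.4.6 and pandas 2.3.3, and fits were tested on simulated data. The alternatives were DESeq2 1.42.0, its size factors, scaling by total counts, dropping the filter, a minimum mean count of 10, a block for the pool letter, 1 fit for the groups of a run, transcripts summed, *Mup* genes summed, files as attached, and each pool left out. The 8 genes in every comparison were named by rule, with *Otx2* and the 3 genes most like *Mup5* and *Ptgds*, and list genes past the threshold or with a role in the pathway. The genes and lists were chosen with earlier results of these data known.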

Additional observations from a re-analysis of the deposited data

Results flagged for a closer look

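*Ptgds* differed between the models in its response. The log2 difference with Cre-Tat in 4V ChP (1.86 ± 0.19) exceeded that of *Otx2*+/GFP from wildtype (0.01 ± 0.12) by 1.84 ± 0.26, and this interaction over 8 pools passed the threshold in edgeR's quasi-likelihood test. Both responses were known when *Ptgds* was chosen, so the value is a description. Strain, sequencing run and the way *Otx2* was reduced differ between the models and cannot be told apart. *Mup5*, with an interaction of 0.79 ± 0.71, did not pass the threshold.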

How the results depend on the processing

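The number of lipocalin genes called stayed within 1.5 times the reported one, except as follows. Without 1 pool it was 1 to 2 in LV Cre-Tat against vehicle (2 reported; *Ptgds* was lost without LV vehicle pool B, adjusted p = 0.06) and 0 to 1 in LV against 4V vehicle (0 reported; *Mup5* without LV vehicle pool A, *Ptgds* without 4V vehicle pool A). By DESeq2 it was 0 in *Otx2*+/GFP against *Otx2*+/AA (*Mup5* 4.82, adjusted p = 0.26). In LV against 4V vehicle it was 1 with no filter (*Mup5*), 1 with the replicate block (*Ptgds*) and 2 with the files as attached, which also gave 2 for the interaction with ventricle. In 4V Cre-Tat it was 2 to 3, *Lcn2* being the added gene.

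Files as attached, where a pool joined runs of different libraries, lowered *Mup5* to 0.81 in LV and 1.78 in 4V Cre-Tat. They reversed *Ptgds* in LV (-0.72) and 4V (-0.20), *Lcn2* in LV (-0.35), and the interactions with model of *Mup5* (-2.76) and *Ptgds* (-0.22). The *Ptgds* difference of *Otx2*+/GFP from wildtype, near 0, turned to -0.0025 with transcripts summed and lay between -0.10 and 0.10 over the alternatives, and that from *Otx2*+/AA lay between -0.19 and 0.020. Without 1 pool, *Mup5* in LV against 4V vehicle was -0.62 to 2.53 and its interaction with ventricle -1.09 to 2.11. The cause was not tested.

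The sources used here do not say that pools of 1 letter share mice, also between LV and 4V, and the correlation of same-letter deviations was -0.15 in LV Cre-Tat, 0.15 in 4V Cre-Tat, 0.34 in *Otx2*+/GFP and 0.083 between LV and 4V vehicle. With the letter as a replicate block, all genes called went from 1554 to 3114 in 4V Cre-Tat, from 515 to 2539 in *Otx2*+/GFP, from 50 to 549 in *Otx2*+/AA, from 1083 to 2288 in LV against 4V vehicle, from 1 to 2 in the interaction with ventricle and from 252 to 1048 in that with model; crossed letters, tried after seeing the data, gave 1012 against 486 in LV Cre-Tat. Files as attached gave 6709, 8742, 4718, 5258 and 4688 in the comparisons that use them. No filter gave 874 in LV Cre-Tat, 390 in *Otx2*+/AA, 1840 in LV against 4V vehicle, and 31 and 627 for the interactions; DESeq2 gave 115 in *Otx2*+/AA and 6 in the interaction with ventricle. Scaling by total counts shifted the median of all genes by 0.17 in LV and 0.15 in 4V Cre-Tat, 0.11 in *Otx2*+/AA, -0.19 in LV against 4V vehicle and 0.12 in the interaction with model. Calls then split 396 higher and 48 lower in LV (331 and 155 with TMM), 1316 and 426 in 4V (829 and 725), and 252 and 1222 in LV against 4V vehicle (504 and 579). With 2 pools per group and at most 3 counts for 5 *Mup* genes, differences in those genes were not detectable.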
